A study of Mus musculus with 6 samples.

Results

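Mitochondrial carriers of the SLC25 family were examined in iTreg cells that lacked or kept miR-31. The family comprised every array gene named Slc25a followed by a number, 46 genes read by 76 of the 41174 probes, and each gene was given by its brightest probe, the one with the highest mean signal over the 6 arrays. Naive T cells, gated as CD4+CD25-Foxp3gfp-CD62Lhi, came from the spleens of 6-week-old mice on a C57BL/6 background, 3 miR-31fl/fl CD4Cre (cKO) mice and 3 miR-31fl/fl control mice. The study's methods name spleen and lymph nodes as the source of peripheral T cells, so the tissue is not settled. The gate uses a Foxp3gfp reporter, which the genotypes given here do not name. All cultures received plate-bound anti-CD3 (5 μg per ml), soluble anti-CD28 (2 μg per ml), TGF-β1 (5 ng per ml) and IL-2 (40 ng per ml) for 4 days, as the labels give them. The study's methods give a lower IL-2 dose for this polarization, so the dose used is not settled. The RNA of each mouse was read on its own one-colour array. The CD4Cre transgene acts in T cells from the thymus onwards, Cre was present in cKO cells only, and the floxed alleles were shared by both groups, so the presence of Cre and the loss of miR-31 cannot be told apart. Nothing states whether the cultures were repeated. The array holds 0 probes named for miR-31, so its deletion was not checked here.

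SLC25 proteins are carriers of the inner mitochondrial membrane. They are encoded in the nucleus, made in the cytosol, brought in through the outer membrane translocase and small chaperones of the intermembrane space, and exchange nucleotides, phosphate, carboxylates, amino acids and cofactors between cytosol and matrix. Activated T cells and Treg cells depend on such exchange for oxidative phosphorylation, for the export of citrate towards lipid synthesis and for the import of folates used in one-carbon metabolism.

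The sequences below show what was deleted and 3 probe stretches of this family that are referred to later. The mature strand of the deleted miRNA, from RefSeq (GRCm38.p6, chr4:88910614-88910635, minus strand), is given with its seed, bases 2 to 8, in capitals.
mmu-miR-31-5p: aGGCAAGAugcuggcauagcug
A transcript with a match to this seed carries the letters TCTTGCC. The search covered the probe strand only. These letters occurred in 1 of the 76 SLC25 probes (1.32%) and in 133 of all 41174 probes (0.323%). The SLC25 probe reads Slc25a28 (NM_145156), and 29 of its bases (mm9, chr19:43738453-43738481, minus strand) are shown with the match in capitals.
Slc25a28: ctaacactagtTCTTGCCaacatctgtcg
The other pair shows how closely the probes of the main ADP/ATP carriers resemble each other. Aligned without gaps, 45 of 54 overlapping bases were identical. Capitals mark the 9 bases that differ. The Slc25a4 probe (NM_007450) lies at mm9 chr8:47292828-47292887 on the minus strand and the Slc25a5 probe (NM_007451) at chrX:34338475-34338534 on the plus strand.
Slc25a4: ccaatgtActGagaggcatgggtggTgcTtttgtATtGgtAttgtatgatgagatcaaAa
Slc25a5: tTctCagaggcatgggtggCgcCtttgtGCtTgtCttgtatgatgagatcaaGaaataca
Whether either probe also bound the other transcript was not tested.

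Values below are log2 signals scaled to the 75th percentile of the same array. A probe's brightness depends on its sequence as well as on the transcript, so mean signal served only to choose which genes are given in full, and no order of expression between genes is drawn from it. Across the tested probes, arrays correlated at r = 0.974 to 0.985 within cKO, 0.984 to 0.989 within control and 0.948 to 0.984 between genotypes. The cKO array 3 stood apart. It was the lowest or highest of the 6 arrays for 63.3% of all tested probes and for 26 of the 38 tested SLC25 members (68.4%), and array weights estimated from the data gave it 0.18, the lowest of the 6. One slide held the 3 cKO arrays with control array 1, and a different slide held control arrays 2 and 3. Markers of T cells and of Treg cells, 6 of each, passed the background flag on every array. At an unadjusted limma p under 0.05, 2 T cell markers were higher in cKO and 1 was lower, and 0 passed after adjustment. Of all tested probes, 11.5% were higher and 11.4% lower at that threshold. Cd3g had a log2 fold change of 0.74 (SE 0.25, limma adjusted p = 0.18) and Cd4 0.66 (SE 0.21, limma adjusted p = 0.17). Cd3e had −0.28 (SE 0.09, limma adjusted p = 0.18). For these 3 genes the groups did not overlap. Of all tested probes, 15.9% had every cKO array above every control array and 20.7% had every cKO array below. The Treg markers did not move one way, with a median log2 fold change of 0.46. Foxp3 was 2.91 ± 0.40 in cKO and 3.53 ± 0.20 in control iTreg cells (SD, n = 3), a log2 fold change of −0.62 (SE 0.22, limma adjusted p = 0.19), and Il2ra had −0.56. Ctla4 was 0.89 ± 0.30 in cKO and −0.04 ± 0.38 in control (0.94, SE 0.24, limma adjusted p = 0.14), and Itgae had 0.85, Ikzf2 0.51 and Tnfrsf18 0.40.

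Markers of other cells also moved with genotype. The log2 of the summed signal of the 6 erythroid markers ran from −0.99 to 0.16 in cKO and from −1.96 to −1.22 in control. This sum rested on Hbb-b1, the 1 erythroid marker tested, which was higher in cKO by 2.10. Hba-a1 went the other way, at −5.14, −5.11 and −6.57 in cKO and −4.07, −3.80 and −3.32 in control, well above background on 0 cKO and 2 control arrays, and Alas2 and Epb4.2, defining genes of the lineage, were well above background on 0 arrays. For the 4 epithelial markers the sums ran from 0.37 to 0.96 in cKO and from −0.31 to −0.15 in control. Of these 4, Cdh1 was higher by 1.01 and Epcam by 0.61, and Krt8 was well above background on 0 arrays. The 2 CD8 T cell markers summed to 1.95 to 2.12 in cKO and 2.14 to 2.49 in control. The sums of the 4 B cell markers (−0.90 to 0.33 against −1.43 to −0.70) and of the 5 myeloid markers (−2.83 to −2.74 against −3.13 to −1.66) overlapped. For the 2 brown adipocyte markers they ran from −4.95 to −3.90 and from −5.67 to −5.06, with Ucp1 well above background on 0 arrays. The part of these cells in the differences between genotypes was not tested. In bulk RNA, fewer cells of a type and less RNA per cell cannot be told apart.

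Of the 46 members, 34 were well above background on all 6 arrays and 6 on none. The 38 that passed on at least 3 arrays were tested. The 8 that were not are Slc25a18, Slc25a21, Slc25a31, Slc25a34, Slc25a41, Slc25a43, Slc25a48 and Slc25a54, and no change is given for them. They include Slc25a31, the ADP/ATP carrier known from the testis, and Slc25a18, the second glutamate carrier.

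No SLC25 member differed between cKO and control after adjustment. With limma, 0 of 38 had a Benjamini-Hochberg adjusted p under 0.05 and the smallest was 0.14, in an experiment where 54 of 22281 tested probes (0.242%) passed. At an unadjusted limma p under 0.05, 5 members (13.2%) were higher in cKO, beside 11.5% of all tested probes, and 4 (10.5%) were lower, beside 11.4%. All 3 cKO arrays lay above all 3 control arrays for 6 members (15.8%, beside 15.9% of all probes) and below them for 6 (15.8%, beside 20.7%). The median log2 fold change was 0.01 over the tested members and −0.04 over all tested probes, and 20 members were nominally higher and 18 lower. The family as a whole was not set apart from the array by these shares, and no test of the list was made. With the slide as a term in the fit, 1 member was higher and 0 were lower at an unadjusted p under 0.05. That fit sets the 3 cKO arrays against control array 1 alone, the only control on their slide, so each slide-term value here and below rests on a control arm of 1 array, assumed to vary like the others. The counts also changed when single arrays were left out. There were 3 members higher without cKO array 2, 2 without control array 1 and 1 without control array 2. Without control array 3, 1 was lower. Calls over all tested probes, in either direction, fell too, from 5120 of 22281 to 4369, 3726, 3077 and 2865 without these arrays in that order. They also fell with the slide as a term. Without cKO array 1, 12 members were separated above and 14 below, beside 23.8% and 29.6% of all tested probes.

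**Figure D1:**
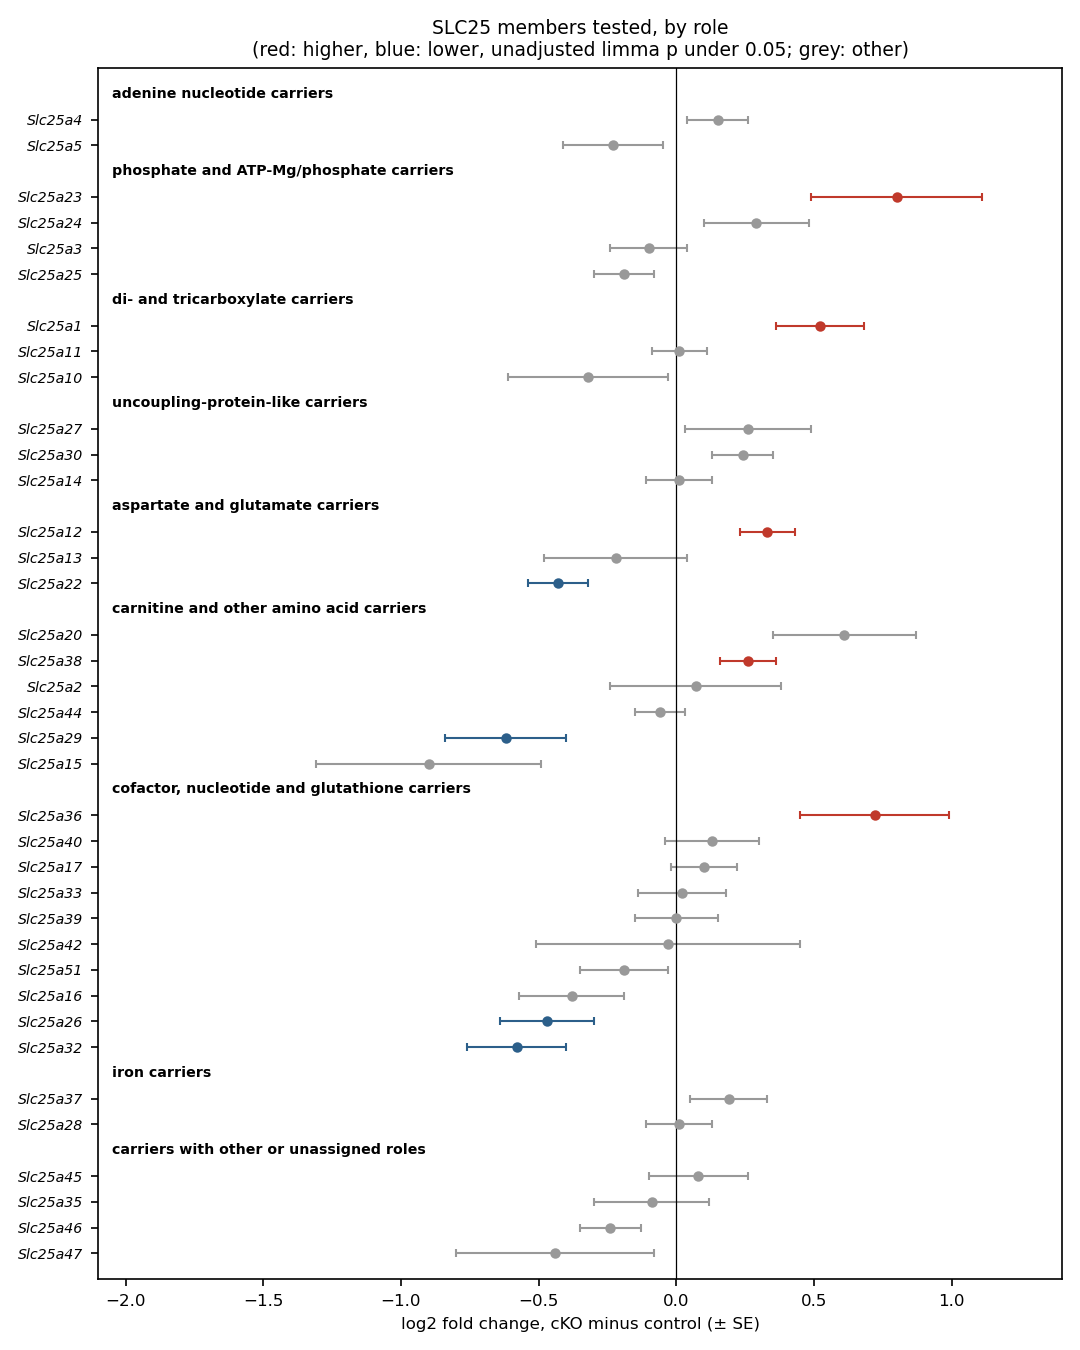
Log2 fold change (cKO minus control, x axis) with its standard error for the tested SLC25 members, grouped by what they carry, with 1 of the 38 not shown. Points scatter on both sides of 0, from −0.90 for Slc25a15 to 0.80 for Slc25a23, with 5 members higher (red) and 4 lower (blue) at an unadjusted limma p under 0.05 and 0 after adjustment.

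Exact permutation of 3 against 3 arrays cannot give a two-sided p below 0.10, so the p-values that follow are those of limma, fitted over all tested probes. Positions are those of the array annotation on mm9. Each gene is described in the order of what it carries. Counts in the lists that follow are to be read against all tested probes. Of those, 11.5% were higher and 11.4% lower at an unadjusted limma p under 0.05, 15.9% separated above and 20.7% below.

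The adenine nucleotide carriers exchange ADP from the cytosol for ATP made in the matrix. Slc25a5 (ANT2), the form of dividing cells, had signals of 7.00, 6.93 and 6.44 on cKO arrays 1 to 3 and 6.93, 6.99 and 7.15 on control arrays 1 to 3. Slc25a4 (ANT1), the form of heart and muscle, had 6.46, 6.72 and 6.57 in cKO and 6.48, 6.48 and 6.34 in control. The groups overlapped for both genes. The log2 fold change of Slc25a5 was −0.23 (SE 0.18, adjusted p = 0.43), with the low value on cKO array 3, and became −0.06 without that array. For Slc25a4 it was 0.15 (SE 0.11, adjusted p = 0.43). A different Slc25a4 probe (chr8:47294441-47294500), outside the stretch shown above, gave 0.09 (SE 0.10).

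Phosphate enters the matrix through Slc25a3, and the ATP-Mg/phosphate carriers, which respond to calcium, set the size of the matrix adenine nucleotide pool. Slc25a3 had signals of 5.12, 5.09 and 4.73 in cKO and 5.01, 5.06 and 5.16 in control, which overlapped (log2 fold change −0.10, SE 0.14, adjusted p = 0.68). Among the ATP-Mg/phosphate carriers, Slc25a23 (NM_025877, chr17:57183867-57183926) read −3.43, −2.60 and −3.15 in cKO and −4.37, −3.80 and −3.40 in control. Its mean was −3.06 ± 0.42 in cKO and −3.86 ± 0.49 in control, 1.74-fold higher (log2 fold change 0.80, SE 0.31, unadjusted p = 0.0417, adjusted p = 0.21). The groups touched, since control array 3 lay above cKO array 1. The signal was well above background on 3 cKO and 2 control arrays. With the slide as a term the fold change was 1.31, set against control array 1, which had the lowest value of the 6. Without control array 1 it was 0.54 (unadjusted p = 0.113), and under normexp with quantile normalization 0.38. Slc25a24 and Slc25a25, its paralogs, had overlapping signals of 0.49 to 1.12 against 0.57 to 0.62 and separated ones of 0.40 to 0.59 against 0.62 to 0.76.

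The carboxylate carriers link the citric acid cycle to the cytosol. Slc25a1 (NM_153150, chr16:17925603-17925662), the citrate carrier, which supplies acetyl units for lipid synthesis and histone acetylation, read 2.68, 3.04 and 2.65 in cKO and 2.36, 2.39 and 2.05 in control. All cKO arrays lay above all control arrays. The mean was 2.79 ± 0.22 in cKO and 2.27 ± 0.19 in control, 1.44-fold higher (log2 fold change 0.52, SE 0.16, 95% interval 0.14 to 0.91, unadjusted p = 0.0161, adjusted p = 0.16). With the slide as a term the fold change was 0.43 (unadjusted p = 0.135). Slc25a11, the oxoglutarate/malate carrier of the malate-aspartate shuttle, read 4.33, 4.39 and 4.28 in cKO and 4.36, 4.34 and 4.26 in control, and its log2 fold change was 0.01 (SE 0.10, 95% interval −0.22 to 0.25). Slc25a10, the dicarboxylate carrier, read 2.15, 1.81 and 0.98 in cKO and 1.92 to 2.06 in control, with cKO array 3 far below the rest.

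Enzymes on either side of these carriers were drawn from a list of citric acid cycle and citrate export genes, of which 18 were tested, 1 was higher and 1 lower at an unadjusted p under 0.05, and 0 passed after adjustment. Idh1, the cytosolic isocitrate dehydrogenase, read −2.90, −2.82 and −3.08 in cKO and −3.75, −3.55 and −3.77 in control (log2 fold change 0.76, SE 0.12, adjusted p = 0.073). The groups of Idh1 did not overlap.

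With their brightest probes, the uncoupling-protein-like carriers Slc25a14, Slc25a27 and Slc25a30 had log2 fold changes between 0.01 and 0.26, none with an unadjusted p under 0.05. Slc25a30 read −0.83, −0.85 and −0.71 in cKO and −0.88, −1.12 and −1.09 in control, which did not overlap. Carriers that the array names by other symbols were covered as a list. Of these, Ucp2, Mtch1 and Mtch2 were tested, 0 of the 3 had an unadjusted p under 0.05 and their median log2 fold change was −0.22, and Ucp1 and Ucp3 were not tested.

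**Figure D2:**
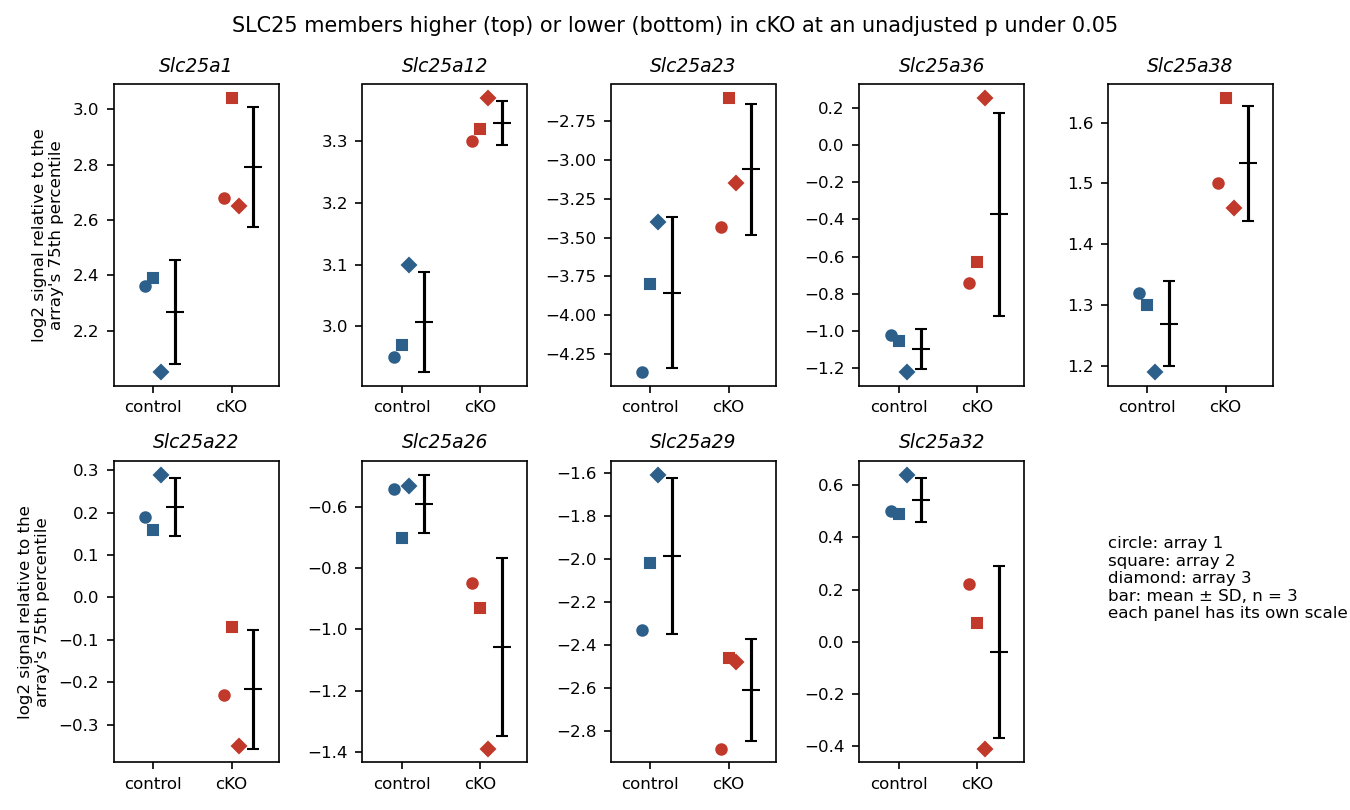
Log2 signal, scaled to the 75th percentile of the array (y axis, a scale of its own in each panel) on each of the 3 control and 3 cKO arrays for the 9 members with an unadjusted limma p under 0.05, with mean ± SD. The groups do not overlap except for Slc25a23, and cKO array 3 (diamond) is the farthest from the controls for Slc25a12, Slc25a36, Slc25a22, Slc25a26 and Slc25a32.

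The aspartate and glutamate carriers differed among themselves. Slc25a12 (aralar; NM_172436, chr2:71112979-71113038), which exports aspartate in exchange for glutamate in the malate-aspartate shuttle, read 3.30, 3.32 and 3.37 in cKO and 2.95, 2.97 and 3.10 in control. Its groups were narrow and did not overlap (3.33 ± 0.04 against 3.01 ± 0.08; log2 fold change 0.33, SE 0.10, unadjusted p = 0.0146, adjusted p = 0.16). Slc25a22 (NM_026646, chr7:148616089-148616148), which brings glutamate into the matrix with a proton, read −0.23, −0.07 and −0.35 in cKO and 0.19, 0.16 and 0.29 in control. It was lower on every cKO array, 1.35-fold in the mean (log2 fold change −0.43, SE 0.11, 95% interval −0.71 to −0.15, unadjusted p = 0.00869, adjusted p = 0.14), the smallest p among the members. With the slide as a term, Slc25a12 had 0.38 (unadjusted p = 0.061) and Slc25a22 −0.40 (unadjusted p = 0.0809). Slc25a13 (citrin), the paralog of Slc25a12, read 0.78, 0.44 and −0.25 in cKO and 0.49, 0.48 and 0.68 in control, which overlapped. Of the 6 tested enzymes of the malate-aspartate and glycerol-phosphate shuttles, 0 had an unadjusted p under 0.05, and the median log2 fold change was 0.06. Separated above were 2 (beside 15.9% of all tested probes) and below 1 (beside 20.7%).

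Among carriers of carnitine and other amino acids, Slc25a38 was higher and Slc25a29 lower at the unadjusted threshold. Slc25a38 (NM_144793, chr9:120032967-120033026), which imports glycine for the first step of haem synthesis, read 1.50, 1.64 and 1.46 in cKO and 1.32, 1.30 and 1.19 in control (log2 fold change 0.26, SE 0.10, unadjusted p = 0.0438, adjusted p = 0.21). Slc25a29 (NM_181328, chr12:110064375-110064434), a carrier of basic amino acids, read −2.88, −2.46 and −2.48 in cKO and −2.33, −2.02 and −1.61 in control (−0.62, SE 0.22, unadjusted p = 0.0287, adjusted p = 0.19). Neither pair of groups overlapped. Beside Slc25a38, the erythroid markers Hbb-b1 and Hba-a1 stood in opposite directions, as given above. With the slide as a term Slc25a38 had 0.21 (unadjusted p = 0.273) and Slc25a29 −0.28 (unadjusted p = 0.345), and under normexp background correction with 75th-percentile scaling, which moved the median of all probes to 0.11, Slc25a29 had 0.02 and Slc25a38 0.07.

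Slc25a20, the carnitine/acylcarnitine carrier that brings fatty acids in for oxidation, read −0.95, −0.26 and −0.33 in cKO and −0.77, −1.08 and −1.50 in control. These values overlapped. Of the carnitine shuttle enzymes, 4 were tested, 1 was higher and 0 lower at an unadjusted p under 0.05. That gene was Crat, which joins acetyl groups to carnitine in the matrix. It read 1.23, 1.16 and 1.28 in cKO and 0.27, 0.27 and −0.06 in control, 2.09-fold higher (log2 fold change 1.06, SE 0.13, adjusted p = 0.053). Against control array 1, on the same slide, the difference was 0.95. The adjusted p did not pass the threshold. Slc25a15, the ornithine carrier, had the most negative fold change of the family but was dim and spread widely, with −3.43, −4.06 and −4.90 in cKO and −3.69, −3.22 and −2.80 in control.

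The cofactor, nucleotide and glutathione carriers were the most numerous group, with 11 members, all tested. At an unadjusted p under 0.05, 1 was higher and 2 were lower in cKO, beside 11.5% and 11.4% of all tested probes. Separated above were 2 and below 2, beside 15.9% and 20.7%. Slc25a36 (NM_138756, chr9:96978236-96978295), a pyrimidine nucleotide carrier that serves mitochondrial DNA and RNA synthesis, read −0.74, −0.63 and 0.25 in cKO and −1.02, −1.05 and −1.22 in control. Its fold change was 0.72 on the log2 scale (SE 0.27, unadjusted p = 0.0366, adjusted p = 0.20) and 0.41 without cKO array 3, its highest array.

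Lower in cKO at the unadjusted threshold were the folate and S-adenosylmethionine carriers. Slc25a32 (NM_172402, chr15:38926713-38926772), known as the mitochondrial folate carrier, read 0.22, 0.07 and −0.41 in cKO and 0.50, 0.49 and 0.64 in control. It was 1.50-fold lower (log2 fold change −0.58, SE 0.18, 95% interval −1.02 to −0.15, unadjusted p = 0.017, adjusted p = 0.17). Slc25a26 (NM_026255, chr6:94554505-94554564), which imports the methyl donor S-adenosylmethionine, read −0.85, −0.93 and −1.39 in cKO and −0.54, −0.70 and −0.53 in control, 1.38-fold lower (−0.47, SE 0.17, unadjusted p = 0.0306, adjusted p = 0.19). For both genes the highest cKO array lay below the lowest control array, and cKO array 3 was the lowest of all. Without cKO array 3, Slc25a26 had −0.30. With the slide as a term, Slc25a32 and Slc25a26 had −0.54 (unadjusted p = 0.108) and −0.52 (unadjusted p = 0.103).

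None of the other cofactor carriers had an unadjusted limma p under 0.05. Slc25a16 read −1.60, −2.22 and −1.91 in cKO and −1.69, −1.57 and −1.33 in control, which overlapped. Slc25a39, known for glutathione import, read 4.04, 4.19 and 3.67 in cKO and 3.96, 3.93 and 4.03 in control, with a log2 fold change of 0.00 (SE 0.15, 95% interval −0.38 to 0.37). Slc25a51, the NAD carrier, read 0.87 to 1.39 in cKO and 1.24 to 1.50 in control, and Slc25a17, the peroxisomal member of the family, 2.97 to 3.28 and 2.98 to 3.09. Both overlapped.

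The iron carriers mitoferrin-1 (Slc25a37) and mitoferrin-2 (Slc25a28) bring iron to the matrix for iron-sulfur clusters and haem. Slc25a28, whose probe holds the letters of a miR-31 seed match, read 2.00, 2.17 and 2.37 in cKO and 2.15, 2.17 and 2.20 in control. Its log2 fold change, looked up because of the match, was 0.01 (SE 0.12, 95% interval −0.29 to 0.30). The probe strand alone was searched, over 60 bases a probe, so matches elsewhere in the transcripts were not examined. Over the 89 tested probes of the array with the same letters the median log2 fold change was −0.03, beside −0.04 over all tested probes. Slc25a37 read 1.98, 2.04 and 2.04 in cKO and 1.70, 1.70 and 2.08 in control, which overlapped.

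Of the iron-sulfur cluster and haem enzymes, 17 were tested, 1 was higher and 1 lower at an unadjusted p under 0.05. Uros, which closes the tetrapyrrole ring, read −2.62, −2.84 and −3.11 in cKO and −2.09, −1.85 and −1.92 in control (log2 fold change −0.90, SE 0.16, adjusted p = 0.083). Ppox, a later enzyme of the same route, read 1.98, 1.77 and 2.13 in cKO and 1.37, 1.41 and 1.78 in control (0.44, SE 0.16, adjusted p = 0.19). The values of Uros were separated and those of Ppox overlapped.

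The remaining tested members, Slc25a35, Slc25a45, Slc25a46 and Slc25a47, had log2 fold changes from −0.44 to 0.08, none with an unadjusted p under 0.05. Slc25a46, which sits in the outer membrane and takes part in mitochondrial shape and lipid traffic, read 3.11, 3.09 and 2.93 in cKO and 3.24, 3.20 and 3.40 in control, separated by a small step.

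Several probes of one gene gave a second reading on the same RNA. At least 2 tested probes were present for 17 members, 59 tested probes in all served the family, and all probes of a gene had the same sign for 13 members and mixed signs for 4. Genes in the rest of this paragraph were chosen after their values were seen. The other probe of Slc25a12 gave 0.83 (SE 0.32, unadjusted p = 0.041), that of Slc25a29 −0.85 (SE 0.25, unadjusted p = 0.0142), that of Slc25a26 −0.49 (SE 0.20, unadjusted p = 0.0528) and that of Slc25a36 0.44 (SE 0.23, unadjusted p = 0.101). These have the direction of the brightest probe. Slc25a24 had 0.29 (SE 0.19) with its brightest probe and 0.54 (SE 0.15, unadjusted p = 0.0112) with a dimmer one. Slc25a30 had 0.24 (SE 0.11) with its brightest probe and 0.34 (SE 0.12, unadjusted p = 0.0274) with a dimmer one. Slc25a25 had −0.19 (SE 0.11) with its brightest probe, and −0.38 (SE 0.14, unadjusted p = 0.0335) and −0.11 (SE 0.10) with dimmer ones. Slc25a51 had −0.19 and 0.33, and Slc25a35 −0.09 and 0.37, from probes annotated with different transcripts, so their direction depended on the probe.

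**Figure D3:**
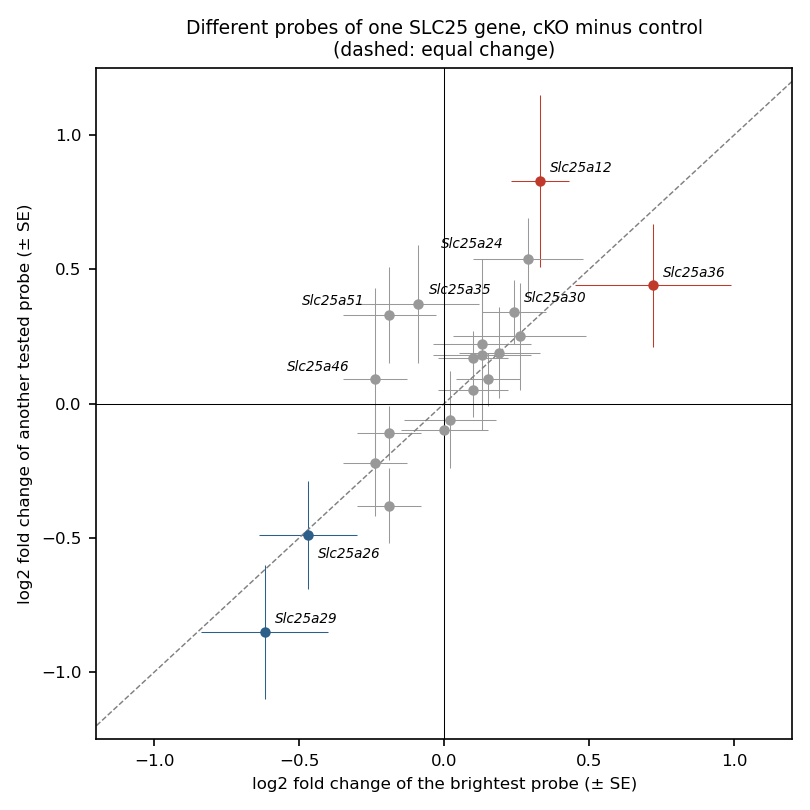
Log2 fold change of the brightest probe (x axis) against that of each other tested probe of the same gene (y axis), with standard errors, for the 17 members with at least 2 tested probes. Most points lie near the dashed line of equal change, and Slc25a12 gives 0.33 and 0.83. Slc25a51 and Slc25a35, among the 4 members with mixed signs, change sign between probes, with no value at an unadjusted limma p under 0.05.

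Close relatives that carry like substrates were set against each other within each array, as the log2 signal of one minus that of the other, in 10 pairs chosen with the values known. In 2 of the 10 pairs the genotypes did not overlap. Among single tested probes, 15.9% were separated above and 20.7% below, and no such share was worked out for pairs. The difference between Slc25a12 and Slc25a13 was 2.52, 2.88 and 3.62 in cKO and 2.46, 2.49 and 2.42 in control, a shift of 0.55 in favour of Slc25a12 (exact permutation p = 0.10, two-sided, the smallest possible, n = 3 per group, and 0.38 after adjustment over the 10 pairs). That between Slc25a33 and Slc25a36 was 1.72, 1.65 and 0.26 in cKO and 1.81, 1.98 and 1.95 in control, a shift of −0.70 (exact permutation p = 0.10, adjusted 0.38). In both pairs cKO array 3 lay farthest out, and without it the shifts were 0.24 and −0.23. With array weights they were 0.36 and −0.37, and under normexp with 75th-percentile scaling 0.30 and −0.64. For Slc25a4 and Slc25a5 the shift was 0.38 with overlap between genotypes (exact permutation p = 0.30). Whether the resemblance of their probes affected that value was not tested.

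The machinery that brings carriers into mitochondria had 0 genes past the adjusted threshold. Of 13 tested genes for the outer translocase, the small intermembrane chaperones and the TIM22 channel, 0 were higher and 3 lower at an unadjusted p under 0.05, 0 were separated above and 5 below, and the median log2 fold change was −0.23, beside −0.04 over all tested probes. Over all tested probes, as given above, 11.5% were higher, 11.4% lower, 15.9% separated above and 20.7% below. Timm10, a chaperone that guides carriers across the intermembrane space, read 3.59, 3.39 and 2.68 in cKO and 4.02, 3.99 and 4.17 in control (−0.84, SE 0.24, adjusted p = 0.16). Timm8a1 was lower by value, at 2.74, 2.35 and 1.74 against 2.94, 2.90 and 3.07 (−0.69, SE 0.25, adjusted p = 0.19), and Tomm5, a small subunit of the translocase, at 3.46, 3.31 and 2.67 against 3.74, 3.67 and 3.81 (−0.59, SE 0.22, adjusted p = 0.19). In all 3 genes cKO array 3 was the lowest, and with the slide as a term the unadjusted p lay between 0.082 and 0.147.

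Of 11 tested regulators of mitochondrial gene expression, 0 were higher and 2 lower at an unadjusted p under 0.05, 1 was separated above and 5 below, to be read against the same shares of all probes (11.4% lower, 20.7% below), and the median was −0.32. Nrf1, a transcription factor of nuclear genes for respiration, had −0.39 (SE 0.15, adjusted p = 0.21) and Tfb2m, a factor of mitochondrial transcription, −0.32 (SE 0.12, adjusted p = 0.20). The 3 outer membrane channels (median −0.13), the 2 subunits of the pyruvate carrier (−0.21) and the 4 tested genes of calcium uptake (0.06) had 0 members with an unadjusted p under 0.05. After adjustment, 0 genes of any of these lists passed.

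**Figure D4:**
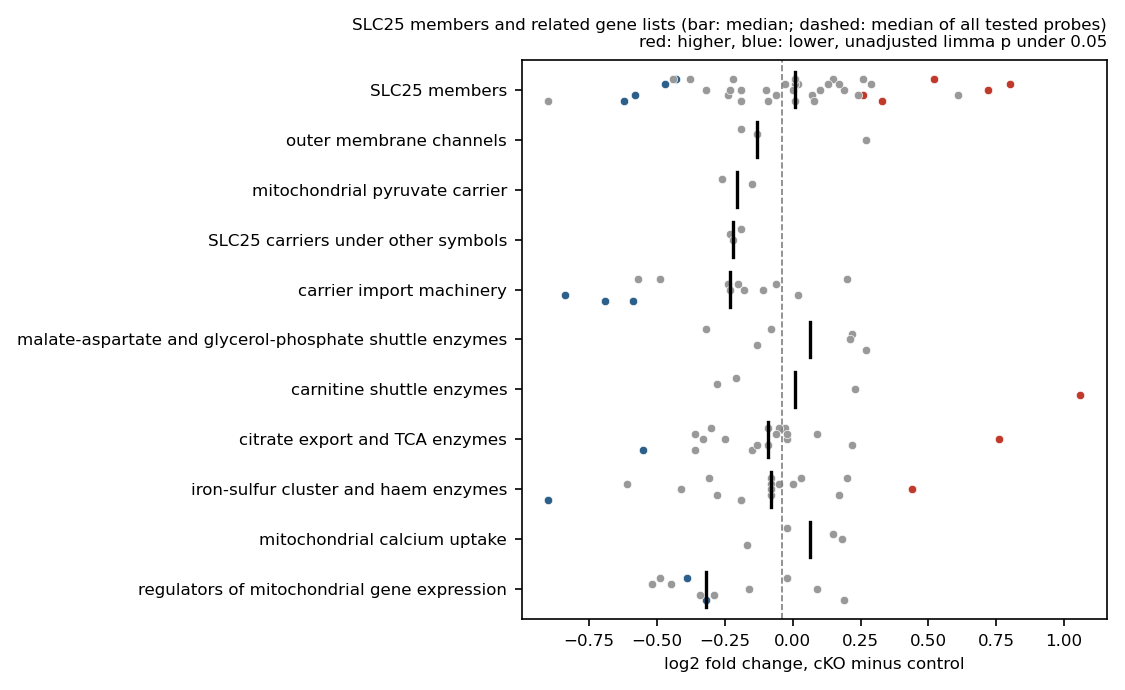
Log2 fold change (cKO minus control, x axis) of the tested SLC25 members and of the tested genes of each related list, 1 point per gene, with the median of each list as a bar and that of all tested probes, −0.04, dashed. The carriers centre on 0.01 with points on both sides, while the import machinery (median −0.23) and the regulators (median −0.32) lie mostly to the left and Crat lies farthest to the right at 1.06.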

How the data were processed

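Total RNA was labelled with Cy3 and hybridized to one-colour Agilent whole mouse genome arrays. Per the file headers, the deposited spot intensities are background-subtracted linear signals from Agilent Feature Extraction 10.7.3.1 (the labels give 9.1), not normalized between arrays. The deposited table of log2 values has column medians of 6.15 and correlates with the log2 spot signals at r of 0.998 or more, so it was read as already normalized. The authors' normalization method is not given in the sources used here. Of its columns, 0 stayed unassigned.

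Each array holds 45018 spots, 43379 of them not controls. Spots marked as outliers (123 to 140 per array) were dropped, spots of a probe averaged, and the log2 signal taken minus the array's 75th percentile (987 to 1148). Saturation affected 0 spots, and the number of arrays limits the precision. Probes flagged well above background by the extraction software on 3 or more of the 6 arrays, 22281 in all, were fitted with limma 3.58.1 (lmFit, eBayes; R 4.3.3), with Benjamini-Hochberg adjustment over all of them. The scaling and background definitions were chosen among several tried so as to follow earlier processing of these data, and the other percentile definition tried changed no member's call. Scaling to the array's median, a different change, did alter the counts of calls, as given below. Other software was numpy 2.4.6, pandas 2.3.3, Python 3.11.15, statmod 1.5.0 for robust fits and matplotlib 3.10.9 for figures. The limma fit was tested on simulated data. The simulated shifts were larger than the fold changes of the members, so recovery at these sizes was not tested.

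The members, roles, related lists and marker lists were chosen with earlier results of these data known. All 46 symbols are current in RefSeq. Fold changes are given for members with an unadjusted p under 0.05 and for the 5 of highest mean signal, and for listed genes with an unadjusted p under 0.05. The array's annotation supplied symbols and mm9 positions. The replicate numbers were not used as pairs in the fit as reported, since deviations of same-numbered arrays correlated at −0.14, 0.01 and −0.19. These correlations cannot show whether same-numbered cultures were handled together. Background correction, scaling, filters, test, weights, slide, replicate number, probe choice and single arrays were varied. A few genes are counted in totals but not reported here by name.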

Additional observations from a re-analysis of the deposited data

How the results depend on the processing

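The count of members with an adjusted p under 0.05 was 0 under every alternative run, and 0 at an adjusted p under 0.10 in the fit as reported. With array weights, Slc25a12 (0.067), Slc25a1 (0.075), Slc25a32 (0.076), Slc25a22 (0.086) and Slc25a38 (0.089) had an adjusted p under 0.10, and without cKO array 1 the smallest of any member was 0.085, while the count over all tested probes at 0.05 ran from 0 to 710. Members higher at an unadjusted p under 0.05 numbered 1 under normexp with 75th-percentile scaling, 3 without a filter on dim probes, 3 with the replicate number as a block and 1 with the slide as a term, and 1 to 6 with an array left out. Members lower numbered 1 under normexp with 75th-percentile scaling and 0 with the slide, and 1 to 5 with an array left out. Scaled to the array's median, 4 members were higher and 3 lower at that threshold. Over all tested probes, calls in either direction at that threshold numbered 5120 as reported, 4493 with median scaling and 1662 under normexp with 75th-percentile scaling. They numbered 4705 of 41174 without a filter on dim probes, 3627 with the replicate block and 2865 to 6465 with an array left out. Separated above were 2 members under normexp with 75th-percentile scaling and 6 to 12 with an array left out, and separated below 6 to 14. The median was −0.03 under normexp with 75th-percentile scaling, 0.00 with array weights and −0.03 to 0.02 with an array left out. Slc25a29 changed sign to 0.02 and Slc25a4 to −0.13 under normexp with 75th-percentile scaling, and Slc25a11 to −0.22 there and −0.03 with the slide. Slc25a3 had 0.01 with array weights and −0.17 to 0.03 with an array left out, and Slc25a11 −0.01 to 0.04. Slc25a39 had 0.02 under normexp with quantile normalization, 0.05 under quantile normalization and in the authors' table, 0.16 with array weights, 0.01 with the slide and −0.11 to 0.15 with an array left out. The cause of these shifts was not tested. The other named members kept their direction under all alternatives but not their size. Under normexp with 75th-percentile scaling Slc25a38 had 0.07, Slc25a26 −0.14, Slc25a12 0.14, Slc25a1 0.30, Slc25a3 −0.35 and Slc25a5 −0.53, and Slc25a23 had 0.38 under normexp with quantile normalization. Dim members such as Slc25a23 lie close to background, which limits what their values can show.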
